A study of Mus musculus with 2 samples.

Results

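The IL-7 receptor and the JAK-STAT cytokine signalling module were followed through thymocyte maturation with 10 genes, chosen by name, out of the 20282 genes of the deposited matrix: the receptor chains Il7r, Il2rg, Il4ra and Il6st, the kinases Jak1 and Jak3, the transcription factor Stat5b, and the feedback inhibitors Socs1, Socs3 and Cish. Whole thymus of 6-week-old mice was profiled by droplet single-cell RNA-seq of transcript 3′ ends, with 5 Cdc42f/f mice pooled into the library labelled WT and 5 Cdc42f/f CD4Cre littermates pooled into the library labelled KO. Both genotypes carry the floxed Cdc42 alleles, and Cre from the CD4 promoter acts from the CD4+ CD8+ double-positive (DP) stage, so cells before that stage precede its action. The cell names write Cdc45 in place of Cdc42, and counts of 3′ ends do not show the deleted exon, so the labels were taken as given. The WT library held 6115 cells and 29706197 unique molecular identifiers (UMIs), with a median of 3192 per cell, and the KO library held 7568 cells and 37920214 UMIs, with a median of 3401. The libraries shared 17 cell barcodes. With 1 library per condition there is no replicate and no test between WT and KO, and all intervals below are exact 95% intervals that cover counting error only.

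IL-7 binds a receptor made of the IL-7Rα chain (Il7r) and the common γ chain (Il2rg). The receptor activates JAK1 and JAK3, which phosphorylate STAT5, and STAT5 drives survival genes as well as the inhibitors SOCS1, SOCS3 and CIS that shut the signal down. Thymocytes depend on IL-7 before β-selection, lose the receptor as DP cells, and regain it after positive selection, when the signal supports CD8 lineage choice and survival of single-positive (SP) cells.

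Levels are given as CPM, the UMIs of a gene in a cluster group of 1 library scaled to a total of 1000000 UMIs, with no scaling by transcript length. Cell groups are the deposited Seurat clusters at resolution 1.5, named here by a leading gene. The Myl10 cluster (54 WT and 99 KO cells) held double-negative marker genes at a summed 1690 and 2362 CPM, against 112 and 132 in the Rag1 clusters, and also γδ T cell markers at 2256 and 2018. The Rag1 clusters (3636 and 4641 cells) held the DP markers, at 10180 and 10370. The Cd5 clusters (535 and 843 cells), the Itm2a cluster (479 and 316 cells) and the Ms4a4b cluster (332 and 396 cells) follow, with early SP markers highest in the Cd5 clusters (5122 and 4642) and the Itm2a cluster (3401 and 4706) and late SP markers highest in the Ms4a4b cluster (4032 and 5867). The proliferating clusters held 686 and 737 cells.

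The RefSeq promoter windows of the 10 genes, from 250 bases before to 50 bases after the gene start on GRCm38.p6, were searched for TTCNNNGAA, the palindromic core to which STAT proteins bind, which reads the same on both strands. The 3 genes with a match, Il7r, Socs3 and Cish, are printed for comparison with their levels below, as 30 bases of the gene's own strand with the match in capitals.
Il7r, chr15:9529999-9530028, minus strand: gttcaggagcTTCAGGGAAtaccaagatgc
Socs3, chr11:117969501-117969530, minus strand: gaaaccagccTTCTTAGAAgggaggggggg
Cish, chr9:107296654-107296683, plus strand: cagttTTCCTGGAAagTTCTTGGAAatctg
The first base of the match lay at −142 from the RefSeq gene start in Il7r, at −154 in Socs3, and at 1 and 12 in Cish. In GENCODE vM21 the Il7r and Socs3 matches lay in an intron of 1 annotated transcript and outside exons, and both Cish matches lay in a 5′ exon and UTR of 1 transcript. At least 1 match was found in 8.3% of all 32851 windows of this length. The windows of Il2rg, Il4ra, Il6st, Jak1, Jak3, Stat5b and Socs1 held none.

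Il7r (ENSMUSG00000003882.5, chr15:9505788-9530176), which encodes the IL-7Rα chain, was counted at high levels on either side of a group in which it was nearly absent. In the WT library its level was 104 CPM in the Myl10 cluster (95% interval 78.2 to 135), 15.2 in the proliferating clusters, 0.644 in the Rag1 clusters (7 UMIs in 3636 cells), 12.6 in the Cd5 clusters (24 UMIs), 335 in the Itm2a cluster (314 to 356) and 249.1 in the Ms4a4b cluster (229 to 270.2). In the KO library the same groups held 189 (163 to 218), 19.3, 0.195 (3 UMIs in 4641 cells), 2.92 (10 UMIs), 252 (230.2 to 276) and 206 (187 to 225). Both libraries therefore had the receptor chain almost absent in the Rag1 clusters and highest in the Itm2a cluster, with a lower level in the Ms4a4b cluster at non-overlapping intervals.
From the Rag1 clusters to the Ms4a4b cluster Il7r was 361-fold higher in WT (187 to 966) and 904-fold higher in KO (358 to 5124), a difference in fold that rests on 7 and 3 UMIs in the lower group. Of the 10 genes, 3 were at least 2-fold higher (a log2 ratio of 1) in the Ms4a4b cluster than in the Rag1 clusters in WT, namely Il7r, Jak3 and Cish, and 1, Socs1, was lower. In KO these were Il7r and Jak3 of 9 genes with at least 20 UMIs, and again Socs1. Of all genes, 10.5% were higher and 22.4% lower in WT and 11.1% higher and 16.5% lower in KO. The clusters were made from the same cells, so these stage differences are a description.

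**Figure D1:**
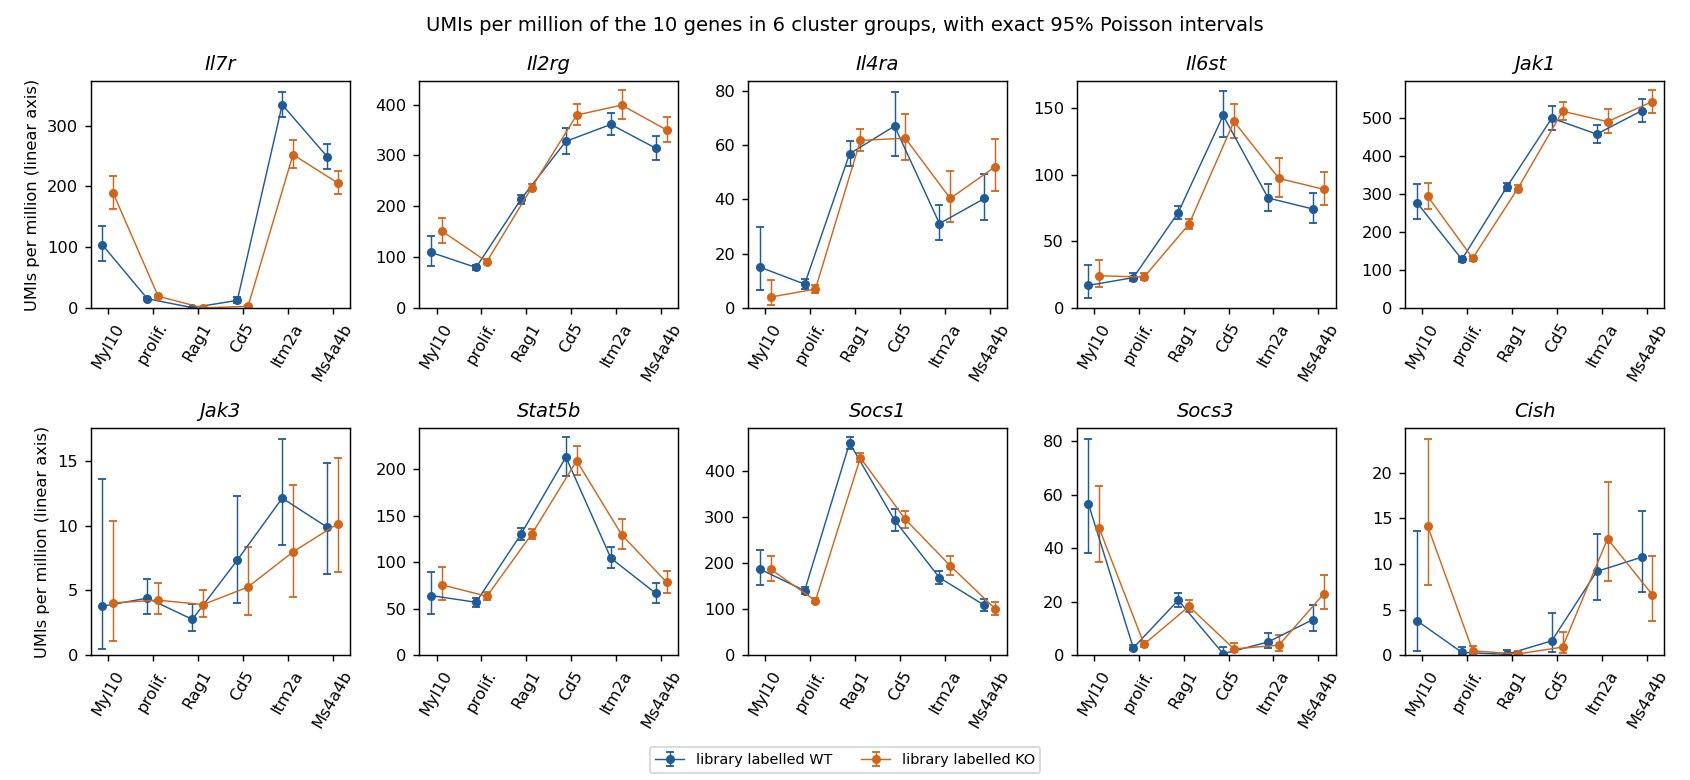
CPM (linear axes starting at 0) of the 10 genes in 6 cluster groups, with the WT library in blue, the KO library in orange and bars for exact 95% Poisson intervals. Il7r stands at 0.644 and 0.195 in the Rag1 clusters and reaches 335 and 252 in the Itm2a cluster, Socs1 peaks in the Rag1 clusters at 460.4 and 429, and Stat5b and Il6st are highest in the Cd5 clusters.

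At the SP stages Il7r was lower in the KO library. The Itm2a cluster held 335 against 252 CPM, a log2 ratio of KO over WT of −0.41 (−0.57 to −0.25), while the median ratio of all 9790 genes with at least 20 UMIs was 0.16. The Ms4a4b cluster held 249.1 against 206, a log2 ratio of −0.28 (−0.46 to −0.10), with a median of all genes of 0.24. Neither interval reached the median. Because the median of all genes was above 0 in both clusters, a gene was called past the fold where its log2 ratio lay 0.5 or more from that median, and Il7r was lower by this rule, at −0.56 and −0.51 from the median. Under TMM factors the log2 ratios were −0.57 and −0.54. With the fold counted from 0, neither of the CPM ratios of −0.41 and −0.28 was past it.
The Cd5 clusters, the step before the Itm2a cluster, held 24 Il7r UMIs in 13 of 535 WT cells and 10 in 5 of 843 KO cells. The levels of 12.6 and 2.92 CPM gave a log2 ratio of −2.06 (−3.33 to −0.99), from few cells. The shares of cells with an Il7r UMI were 2.43% (1.30% to 4.12%) and 0.593% (0.193% to 1.38%). In the Rag1 clusters the 7 and 3 UMIs were too few to compare.
In the Myl10 cluster the order was the other way round, with 104 in WT and 189 in KO, a log2 ratio of 0.85 (0.42 to 1.32). The marker genes of double-negative cells in that cluster were also higher in KO, 8 of 8, at a summed 1690 and 2362, while its γδ T cell markers stood at 2256 and 2018, and their part in the Il7r difference was not tested. After every cell was thinned to 1000 UMIs, leaving 9 WT and 15 KO cells with an Il7r UMI, the log2 ratio in the Myl10 cluster was −0.17, and with the mean over cells it was 0.66. The proliferating clusters were also higher in KO, at 15.2 and 19.3, a log2 ratio of 0.34 (0.05 to 0.65), inside the fold. Their deposited clusters differed in direction, at 1.57 and 6.84 in cluster 10 and 16.8 and 33.1 in cluster 11. Cluster 12 stood at 31.6 and 22.0, and cluster 13 at 5.94 and 5.32.

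The share of cells with an Il7r UMI gave the same order at the SP stages. In the Itm2a cluster 49.3% of WT cells (44.7% to 53.8%) and 35.4% of KO cells (30.2% to 41.0%) had one, at median depths of 5714 and 5363 UMIs. In the Ms4a4b cluster the shares were 45.8% (40.3% to 51.3%) and 33.1% (28.5% to 37.95%), at median depths of 6738 and 5032. The Rag1 clusters, which serve as the background of free RNA, had a share of 0.193% in WT and 0.0646% in KO at 2823 and 3097 UMIs per cell. With each cell thinned to 1000 UMIs, the shares in the Itm2a cluster were 21.7% (18.1% to 25.7%) and 12.4% (8.95% to 16.5%), which do not overlap, and those in the Ms4a4b cluster were 16.6% (12.8% to 21.1%) and 13.9% (10.6% to 17.7%), which do. At equal depth the lower share of KO cells thus held beyond counting error in the Itm2a cluster only, of these 2 clusters.

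**Figure D2:**
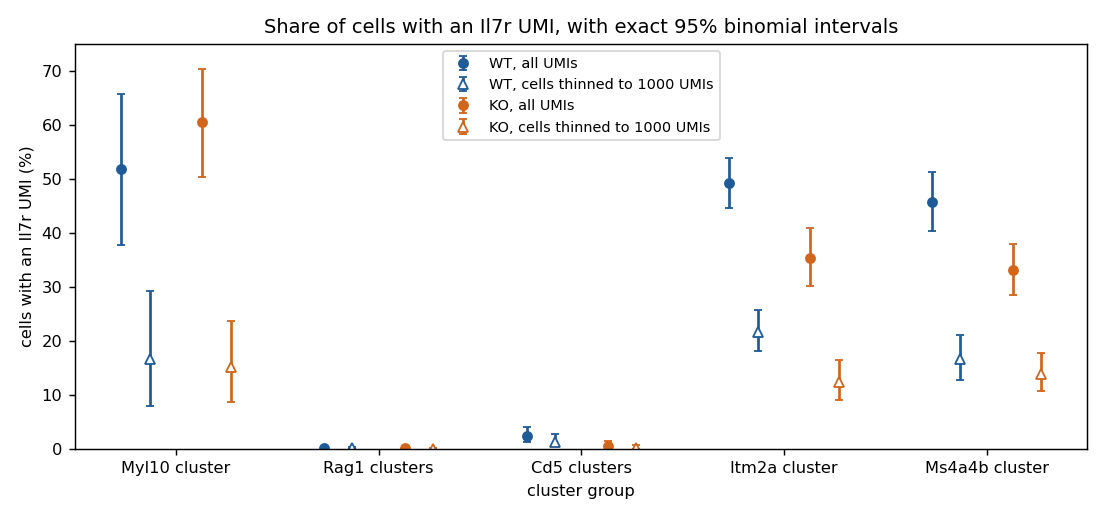
Percent of cells with at least 1 Il7r UMI in 5 cluster groups, by library, with exact 95% binomial intervals, for all UMIs (filled circles) and after thinning each cell to 1000 UMIs (open triangles). In the Itm2a cluster the KO share lies under the WT share both ways (35.4% and 49.3%, then 12.4% and 21.7%), and in the Ms4a4b cluster the thinned intervals overlap.

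Cells of both SP clusters were sorted by coreceptor transcripts into those with Cd4 UMIs alone (206 WT and 168 KO cells) and those with Cd8a or Cd8b1 UMIs alone (245 and 162 cells). Cells with UMIs of both or of neither were left out, and the Itm2a cluster held 479 and 316 cells and the Ms4a4b cluster 332 and 396. In the Rag1 clusters Cd4 stood at 535 CPM in WT and 611 in KO, against 3467 and 3632 for Cd8b1. A DP cell can thus fall in the Cd8 class, so the classes are not lineages, and the share of such cells was not tested. Il7r stood at 367 CPM in WT and 295 in KO cells of the Cd4 class, and at 175 and 128 in the Cd8 class. The Cd8 class was lower than the Cd4 class within each library, by a log2 ratio of −1.07 (−1.28 to −0.86) in WT and −1.20 (−1.53 to −0.88) in KO. The KO library was lower than WT within each class, at a log2 ratio of −0.31 (−0.53 to −0.10) in the Cd4 class and −0.44 (−0.77 to −0.13) in the Cd8 class. From the median of all genes Il7r lay at −0.47 in the Cd4 class, not past the fold, and at −0.63 in the Cd8 class, past it.
The gap between the classes was wider in the Itm2a cluster, where WT cells had 409 and 162 and KO cells 379 and 87.3, than in the Ms4a4b cluster, where WT cells had 291 and 189.5 and KO cells 201 and 155. The lowest of these 8 levels was that of KO cells with Cd8 UMIs alone in the Itm2a cluster, from 31 UMIs in 65 cells.
Of the other genes, Socs3 stood at 4.36 in WT and 17.2 in KO cells of the Cd4 class, from 6 and 16 UMIs, and at 13.8 and 16.7 in the Cd8 class. Stat5b stood at 87.3 and 117 in the Cd4 class and at 84.8 and 82.6 in the Cd8 class. Jak1 stood at 419.7 and 512 in the Cd4 class and at 510.2 and 550.3 in the Cd8 class.

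**Figure D3:**
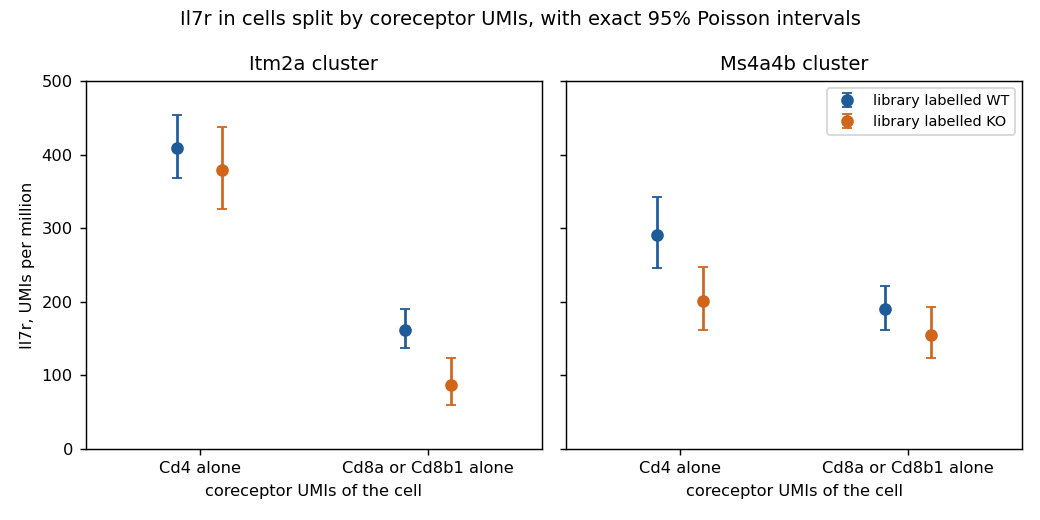
Il7r in CPM (linear axis from 0) in cells of each SP cluster with Cd4 UMIs alone or with Cd8a or Cd8b1 UMIs alone, by library, with exact 95% Poisson intervals. All 4 Cd8 values (87.3 to 189.5) lie under the Cd4 value of the same cluster and library. For KO in the Ms4a4b cluster the interval of the log2 ratio between the classes (−0.82 to 0.08) included 0.

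The libraries divided differently within the Itm2a cluster. At resolution 1.8 most of its cells fell into 2 deposited clusters, a part with more Itm2a, of 173 WT and 186 KO cells, and another part, of 325 and 136 cells. Of these, 142 WT and 160 KO cells of the first and 316 and 132 of the second belonged to the Itm2a cluster, and the rest came from other clusters. Early SP markers in the whole Itm2a cluster were higher in KO, 7 of 7, and DP markers stood at a summed 1680 in WT and 2344 in KO. Within the part with more Itm2a, Il7r stood at 303 in WT and 242 in KO, a log2 ratio of −0.32 (−0.58 to −0.07). Within the other part it stood at 352 and 267, a log2 ratio of −0.40 (−0.62 to −0.19). Il7r was thus lower in KO in each part taken alone, though in the first, at −0.37 from the median of all genes, it was not past the fold, and in the second, at −0.58, it was. The libraries still differed within the second part, where Itm2a stood at 1285 in WT and 1861 in KO, Rag1 at 56.4 and 77.9, and Ccr7 at 218 and 173. In the first part these genes stood at 2476 and 2322, 186 and 134, and 87.2 and 79.0. Their part in the Il7r difference was not tested.
In the Ms4a4b cluster, marker genes of regulatory T cells stood at a summed 559.5 in WT and 267 in KO, with 7 of 7 genes lower, and γδ T cell markers at 293 and 487, with 8 of 9 genes higher. The DP markers, whose cells nearly lack Il7r, stood there at a summed 1099 in WT and 1500.0 in KO, with 8 of 8 genes higher in KO, Rag1 among them at 88.9 and 184, and their part in the Il7r difference was not tested. When cells with a Foxp3 or Trdc UMI were left out, a choice made after the values were seen, the log2 ratio of Il7r there was −0.57, against −0.28 with them. Without doublets by Scrublet score it was −0.12, and without the 5% of cells with most UMIs it was −0.19, neither past the fold.

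Il2rg (ENSMUSG00000031304.18, chrX:101264378-101268255) encodes the common γ chain, which IL-7Rα shares with the receptors of IL-2, IL-4, IL-9, IL-15 and IL-21. Its level climbed ahead of Il7r, from 214 in WT and 237 in KO in the Rag1 clusters to 328 and 379.5 in the Cd5 clusters, then 361 and 399 in the Itm2a cluster and 314 and 350.3 in the Ms4a4b cluster. The KO value was above the WT value in all 6 groups, by log2 ratios of 0.14 to 0.46, none of which was past the fold, but with TMM factors it was below it in both SP clusters, at −0.02 (Itm2a) and −0.10 (Ms4a4b). At the SP stages Il7r lay under the median ratio of all genes (−0.56 and −0.51), and Il2rg at −0.01 and −0.08 from it.
Il4ra (chr7:125552120-125579474), the IL-4 receptor α chain and an alternative partner of the γ chain, was, of the 6 groups, highest in the Rag1 clusters (56.9 and 61.8) and the Cd5 clusters (67.0 and 62.6) and stood at 31.1 and 40.4 in the Itm2a cluster. Il6st (chr13:112464070-112510086), which encodes gp130, the shared chain of the IL-6 family receptors, stood at 71.7 and 62.9 in the Rag1 clusters and at 145 and 140.0 in the Cd5 clusters, 2.02-fold (1.75 to 2.32) and 2.23-fold (1.99 to 2.49) higher, and stood at 82.6 and 97.3 in the Itm2a cluster. Outside these 6 groups both genes were higher still in the Lars2 cluster (250 WT and 366 KO cells of 956 and 1200 UMIs at the median, with 18.6% and 15.7% mitochondrial UMIs), at 110.4 and 104 for Il4ra and 162 and 151 for Il6st. None of the ratios of KO over WT of Il4ra and Il6st in those of the 6 groups with at least 20 UMIs was past the fold.

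Jak1 (chr4:101152367-101265282), the kinase bound to IL-7Rα, had 1 course in both libraries. It stood at 319 and 314 in the Rag1 clusters, 499.6 and 518 in the Cd5 clusters, 458 and 491 in the Itm2a cluster and 519 and 544 in the Ms4a4b cluster. Its log2 ratios of KO over WT lay between −0.02 and 0.10 in the 6 groups.
Jak3 (chr8:71676296-71690575), the kinase bound to the γ chain, was counted at 2.76 and 3.91 CPM in the Rag1 clusters, 12.1 and 7.97 in the Itm2a cluster and 9.88 and 10.2 in the Ms4a4b cluster. With 158 UMIs in the whole WT library and 183 in the KO library, its ratios past the fold in the Cd5 clusters (14 and 18 UMIs) and the Itm2a cluster (37 and 15 UMIs, a log2 ratio of −0.58 with an interval of −1.58 to 0.30) were within counting error of 0, and both calls were lost with the mean over cells.

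Stat5b (chr11:100780731-100850724), one of the STAT5 genes that act under this receptor, peaked where Il7r was still low. Its level was 130.2 in WT and 130.3 in KO in the Rag1 clusters, 213 and 209 in the Cd5 clusters, 105 and 129.7 in the Itm2a cluster and 66.6 and 78.5 in the Ms4a4b cluster. The course was the same in both libraries. The log2 ratio of KO over WT in the Itm2a cluster was 0.31 (0.06 to 0.56), which is 0.16 above the median of all genes and inside the fold, and it was 0.45 in the part with less Itm2a and −0.04 in the other.

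Socs1 (ENSMUSG00000038037.5, chr16:10782240-10785536), the inhibitor that keeps DP thymocytes unresponsive to cytokines, was highest, of the 6 groups, in the Rag1 clusters, where Il7r was lowest, and lower at each later step, including the last, at which Il7r was lower too. Its levels were 460.4 (448 to 473) in WT and 429 (418 to 439) in KO, and stood at 293 and 295 in the Cd5 clusters, 168 and 194 in the Itm2a cluster and 108 and 101 in the Ms4a4b cluster. The log2 ratio of the Ms4a4b cluster over the Rag1 clusters was −2.09 in each library (−2.28 to −1.91 in WT, −2.29 to −1.90 in KO). The share of cells with a Socs1 UMI went from 67.8% and 68.6% in the Rag1 clusters to 38.6% and 30.1% in the Ms4a4b cluster, although the latter cells were deeper. The ratio of KO over WT of Socs1 was inside the fold in all 6 groups.
Socs3 (ENSMUSG00000053113.3, chr11:117966079-117970047), the inhibitor that acts on gp130 receptors, was, of the 6 groups, highest in the Myl10 cluster, at 56.6 and 47.4, and stood at 20.5 and 18.2 in the Rag1 clusters. It was nearly absent from the Cd5 clusters, at 0.524 and 2.34 (1 and 8 UMIs), and came back in the Ms4a4b cluster, at 13.3 (9.05 to 18.9) in WT and 22.9 (17.1 to 30.1) in KO. The step from the Rag1 to the Cd5 clusters was the steepest decrease of any of the 10 genes at that step, with log2 ratios of −4.71 (−10.60 to −2.80) and −2.88 (−4.19 to −1.96), in the clusters in which Il6st, of the 6 groups, was highest. In the Ms4a4b cluster the 31 WT and 52 KO UMIs, in 25 and 40 cells, gave a log2 ratio of 0.78 (0.12 to 1.48), past the fold at 0.54 from the median. This call was lost when the mean over cells was taken, at 0.42 from the median, and without doublets by Scrublet score, at 0.40. Its 15 and 7 UMIs in the Itm2a cluster lay just past the fold on the lower side, at −0.51 from the median with an interval of the log2 ratio that included 0, and this call was lost without cells with over 10% mitochondrial UMIs (−0.498), without the 5% of cells with most UMIs (−0.46), with 1 added in place of 0.5 (−0.46) and with the fold counted from 0 (−0.35).
Cish (ENSMUSG00000032578.7, chr9:107296026-107302784), which encodes CIS, an inhibitor induced by STAT5, was higher in the Itm2a cluster than in the Cd5 clusters, as Il7r was. It had 1 and 2 UMIs in the Rag1 clusters, 3 and 3 in the Cd5 clusters, 28 and 24 in the Itm2a cluster (9.18 and 12.8 CPM) and 25 and 15 in the Ms4a4b cluster (10.7 and 6.62). The log2 ratio of KO over WT in the Ms4a4b cluster was −0.68 (−1.73 to 0.28), past the fold at −0.92 from the median but within counting error of 0. In the Itm2a cluster it was 0.48 (−0.37 to 1.31).

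The number of the 10 genes past the fold between the libraries was read against the share of all genes past it, and with 7 to 10 genes measured in a group a difference of 1 or 2 genes from that share is no result about them. In the Rag1 clusters 8 genes had at least 20 UMIs and 0 were past it, against 6.29% of all genes higher and 4.07% lower. In the proliferating clusters 1 of 9, Socs3, was higher, against 6.5% higher and 4.32% lower among all genes. In the Myl10 cluster 1 of 7, Il7r, was higher, against 13.1% higher and 10.9% lower.
In the Cd5 clusters 0 of 8 were higher and 2 lower, Il7r and Jak3, against 8.42% higher and 5.68% lower. In the Itm2a cluster 0 of 10 were higher and 3 lower, Il7r, Jak3 and Socs3, against 8.55% higher and 10.6% lower. In the Ms4a4b cluster 1 of 10 was higher, Socs3, and 2 lower, Il7r and Cish, against 13.1% higher and 13.5% lower. Il7r was the gene of the 10 that was lower in all 3 groups that follow the Rag1 clusters, and its interval excluded 0 in each. The interval of Il2rg excluded 0 in each as well, on the higher side and with its ratio inside the fold. From the median of all genes Il2rg lay at 0.17 (Cd5), −0.01 (Itm2a) and −0.08 (Ms4a4b), so it was not above that median in the SP clusters.

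**Figure D4:**
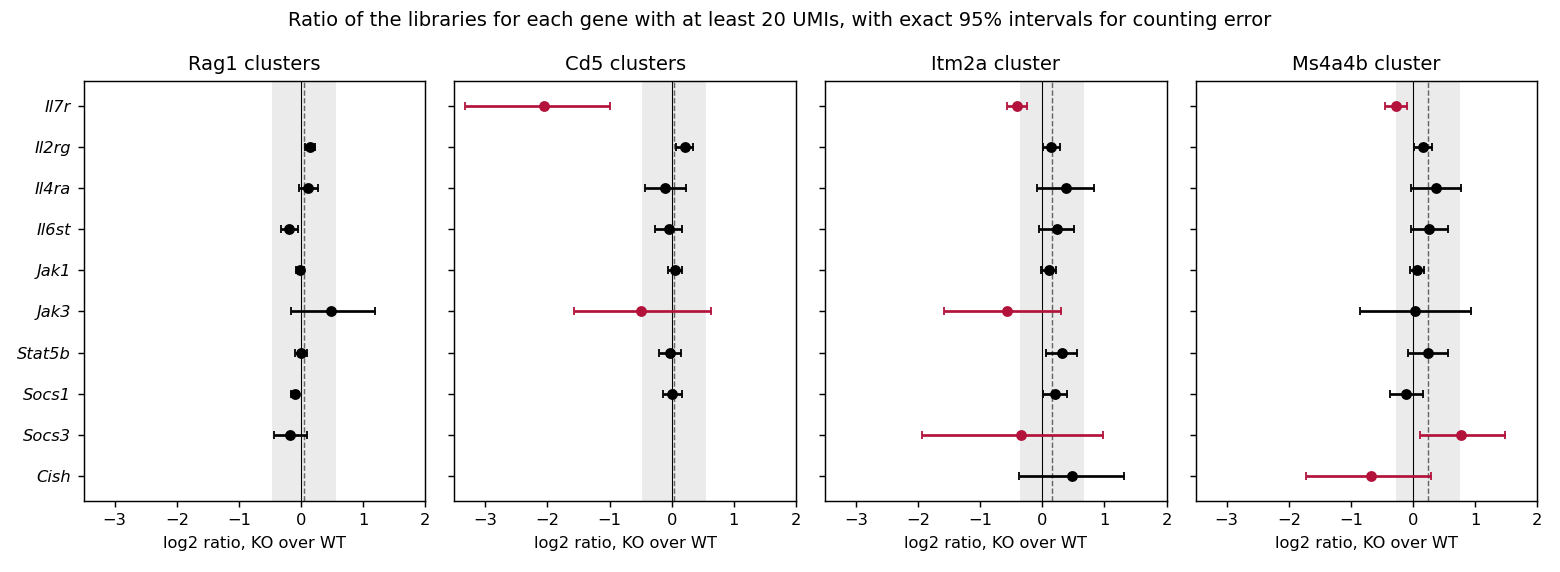
Log2 ratio of the KO over the WT library for each of the 10 genes with at least 20 UMIs, in 4 cluster groups, with exact 95% intervals for counting error. The dashed line is the median of all genes, the grey band reaches 0.5 to either side, and red points lie outside it. Il7r lies left of the band in the Cd5, Itm2a and Ms4a4b panels, at −2.06, −0.41 and −0.28.

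A list of 75 other genes of cytokine signalling was read in the same way, of which 71 were in the matrix. With at least 20 UMIs, 54 of them were measured in the Rag1 clusters, with 1 higher and 1 lower past the fold, against 6.29% and 4.07% of all genes. In the Cd5 clusters 45 were measured, with 7 higher and 2 lower, against 8.42% and 5.68%. In the Itm2a cluster 5 of 48 were higher and 5 lower, against 8.55% and 10.6%, and among 50 measured in the Ms4a4b cluster 6 were higher and 10 lower, against 13.1% and 13.5%. The median distance of the list from the median of all genes was −0.0083 (Itm2a) and 0.0004 (Ms4a4b) on the log2 scale. Of its cytokine receptors, 2 of 14 were higher and 2 lower in the Itm2a cluster, with a median distance of −0.11. In the Ms4a4b cluster 2 of 15 were higher and 7 lower, with a median distance of −0.32, and some of the 7 had fewer than 50 UMIs.
Of 5 STAT genes of the list, none was past the fold in the Itm2a cluster and 1 was in the Ms4a4b cluster, Stat2, which acts under the type I interferon receptor, at 24.9 and 19.4 CPM, lower in KO but with an interval of the log2 ratio that included 0. Stat5a, the second STAT5 gene, stood at 32.4 and 39.9 in the Itm2a cluster and 29.2 and 25.2 in the Ms4a4b cluster and was inside the fold in both.
Among receptor chains, Il2rb, which pairs with the γ chain to bind IL-2 and IL-15, was lower in both SP clusters, at 24.3 and 9.57 in the Itm2a cluster and 73.4 and 56.9 in the Ms4a4b cluster. Marker genes of innate-like T cells and NK cells, a list that includes Il2rb, stood at a summed 187 in WT and 109 in KO in the Itm2a cluster, with 10 of 11 lower, and at 836 and 857 in the Ms4a4b cluster, with 7 of 11 lower, and their part in the Il2rb difference was not tested. Il6ra, the IL-6 receptor α chain that signals through gp130, was higher in the Ms4a4b cluster, at 52.4 and 141, a log2 ratio of 1.42 (1.12 to 1.74). Ifnar2, a chain of the type I interferon receptor, was lower there, at 51.5 and 33.1, as was Ifngr2, a chain of the interferon γ receptor, at 60.6 and 48.1 with an interval of the log2 ratio that included 0.
Of the reported STAT5 targets, 7 of 8 were measured in each SP cluster. Ccnd2, which encodes cyclin D2, was lower in the Itm2a cluster, at 584 and 336, a log2 ratio of −0.80 (−0.93 to −0.66), and stood at 699 and 657 in the Ms4a4b cluster. Bcl2, the survival gene, was lower in the Ms4a4b cluster, at 286 and 237, and in the Cd5 clusters, at 265 and 175, but stood at 434.8 and 434.7 in the Itm2a cluster between them. Pim2, a survival kinase, was lower in both SP clusters, at 13.4 and 6.38 and at 29.2 and 17.7.
Pim1, the related kinase, went the other way in the Ms4a4b cluster, at 53.7 in WT and 138 in KO, a log2 ratio of 1.36 (1.05 to 1.67). The reported STAT5 targets thus did not share 1 direction, with 0 higher and 2 lower in the Itm2a cluster and 1 higher and 2 lower in the Ms4a4b cluster, of 7 genes each, too few to read against the shares of all genes.
Of the inhibitors, 3 of 12 were higher in the Itm2a cluster and none lower, namely Socs4 (29.2 and 51.0), Socs6 (13.1 and 22.3) and Pias2 (21.0 and 34.5), against 8.55% of all genes higher and 10.6% lower there, and with 12 genes this count is no result about the inhibitors. In the Ms4a4b cluster Sh2b3, which encodes the JAK2 adaptor LNK, was higher at 8.59 and 21.6. Osm, a gp130 ligand, was higher there too, at 8.16 and 20.3. Il7 itself, which stromal cells make, had 0 UMIs in both libraries in both SP clusters and 0 and 1 in the Rag1 clusters.
Of the 7 regulators of Il7r transcription, 1 was past the fold in the Itm2a cluster, Runx3, a repressor of Cd4 in CD8 cells, at 90.8 and 64.3, and none in the Ms4a4b cluster. Foxo1, which activates Il7r, stood at 62.6 and 59.0 in the Itm2a cluster and 147 and 183 in the Ms4a4b cluster. Gfi1, which represses Il7r, stood at 69.1 and 66.8 in the Rag1 clusters and at 12.5 and 18.6 in the Itm2a cluster. The genes of the list with the highest levels in the Ms4a4b cluster were Ccnd2, Ets1 (689.7 and 1072) and Foxp1 (403 and 534).

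**Figure D5:**
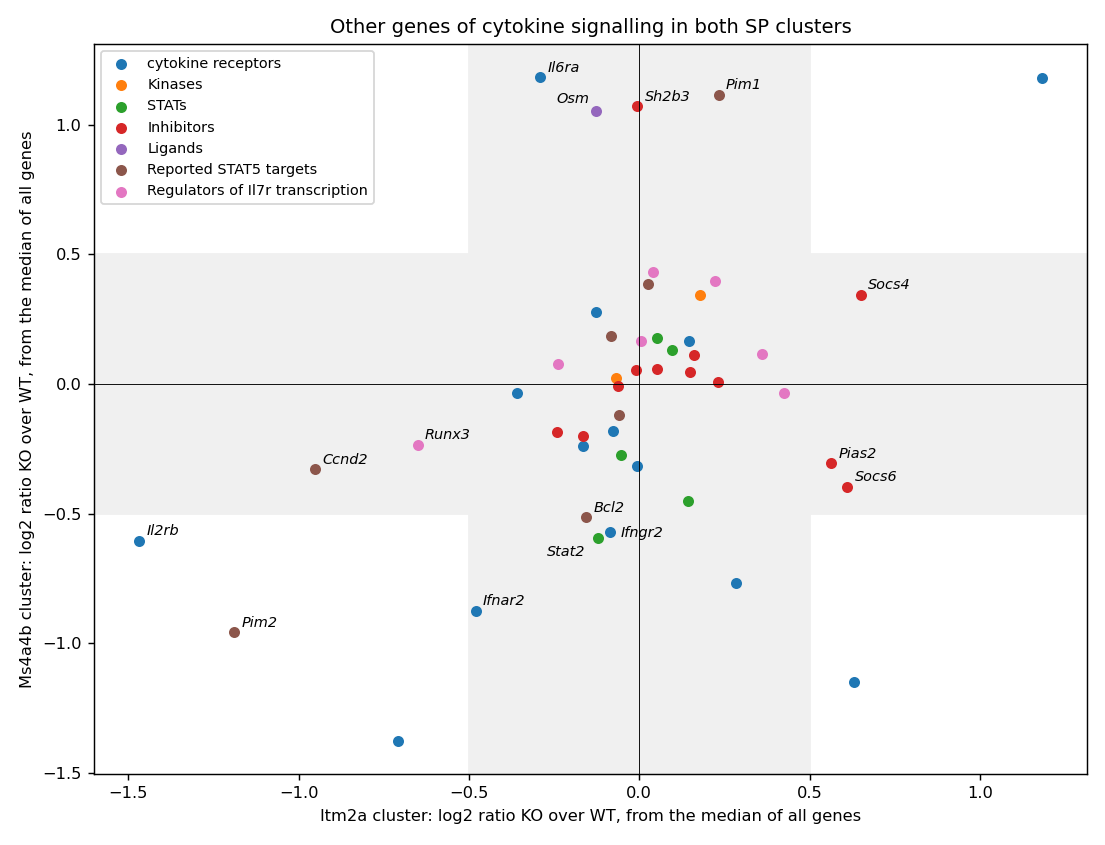
Log2 ratio of KO over WT, from the median of all genes, in the Itm2a cluster (x axis) and the Ms4a4b cluster (y axis) for the 48 other genes of cytokine signalling measured in both, coloured by role, with the 0.5 fold as grey bands. Il2rb and Pim2 are lower in both clusters, Il6ra, Pim1, Sh2b3 and Osm are higher in the Ms4a4b cluster, and Ccnd2 is lower in the Itm2a cluster.

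Likeness of course was taken as Pearson's r of log2 levels over 38 profiles, the 19 deposited clusters in each library, which share libraries and differ in depth, among 8822 genes. The genes most like Il7r were Ccnd2 (0.87), Smad7 (0.86), Nkg7 (0.84), Gpr18 (0.79) and Gm4759 (0.79). Those most like Socs3 were Gm36738, Gm26510, Zfyve26, Lpp and Grina (0.72 to 0.76). Those most like Cish, which has 136 UMIs in all, were Lfng, Runx3, Capg, Sema4a and Ifi213 (0.81 to 0.86). Between members, Il7r and Cish had an r of 0.68, Il7r and Socs1 of −0.33, and Il2rg and Il4ra of 0.83.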

How the data were processed

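Whole-thymus cells of 1 pooled library per genotype were measured by 3′ single-cell RNA-seq. The authors deposited a matrix of raw UMI counts, which they had not normalized, and a table of cell totals and Seurat clusters at resolutions 1.5, 1.8 and 2. The submitters' processing notes name Cell Ranger 3.0.2, STAR, Seurat and mm10. Both deposited tables were joined by cell name, and cells were assigned to WT or KO by the letters in that name. All 13683 deposited cell totals matched the matrix.

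UMIs were summed per cluster group and library and given as CPM, with exact Poisson, conditional binomial and Clopper-Pearson intervals. Log2 ratios had 0.5 added to both sums, and genes with at least 20 UMIs over both libraries were compared. The median ratio of these genes was the reference, and a gene was past the fold at a distance of at least 0.5 from it. No statistical test was made, because each condition has 1 library and cells are not replicates. The genes, gene lists, cluster groups and rules were chosen with earlier results of these data known. All 10 genes are named. A result on 1 further gene of the pathway list is not reported here. Other pathway genes are named where they had at least 50 UMIs and lay past the fold in either SP cluster, or were among the 3 highest in the Ms4a4b cluster. Stat5a, Il7, Foxo1 and Gfi1 were named after their values were seen. For Il7r, Socs3 and Cish the 5 genes with the highest r of log2(CPM + 1), among genes with at least 500 UMIs, are named. Share intervals are affected by depth, so cells were also thinned to 1000 UMIs.

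Promoter windows and motif coordinates are RefSeq's on GRCm38.p6, and gene positions are from GENCODE vM21 on the same build, which may not be the annotation the authors counted with. Calculations used Python 3.11.15, numpy 2.4.6, scipy 1.17.1, pandas 2.3.3 and scanpy 1.11.5, and scaling factors came from edgeR 4.0.16 and DESeq2 1.42.0 in R 4.3.3, which were used for no test. The computation was tested on simulated data. Scrublet marked 2 WT cells and 0 KO cells, too few to have worked, so the alternative without doublets left out the 367 WT and 454 KO cells with the highest scores. Other alternatives changed totals, scaling, weighting of cells, filters on cells and on low counts, the added constant and the cluster resolution.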

Additional observations from a re-analysis of the deposited data

Results flagged for a closer look

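The ratio of the KO over the WT library went in opposite directions in different cluster groups for Il7r and Socs3. Each lay past the fold on both sides, but the lower side of Socs3 did so only just, at −0.51 from the median, and was lost under some of the alternatives. For Il7r the log2 ratio was 0.85 in the Myl10 cluster, which held both double-negative and γδ T cell markers, and −0.17 there with cells thinned to 1000 UMIs, against −2.06 in the Cd5 clusters, and in the later clusters −0.41 (Itm2a) and −0.28 (Ms4a4b). For Socs3 it was 0.58 (−0.10 to 1.32) in the proliferating clusters and 0.78 (0.12 to 1.48) in the Ms4a4b cluster, and −0.35 (−1.94 to 0.98) in the Itm2a cluster, which held 15 and 7 UMIs. The differences between cluster groups were not tested, since each group has 1 sample per condition.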

How the results depend on the processing

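Depth and the 1 library per condition set the limits: ratios of Jak3, Socs3 and Cish rest on 7 to 52 UMIs a library in the SP clusters, and no value has a replicate check. No paired analysis was possible because each condition has 1 library. Of 982 values of single genes under an alternative, 920 stayed within the main interval and 61 moved out of it. Of genes past the fold in the main comparison 1 reversed, namely Il7r in the Myl10 cluster, at −0.17 with cells thinned to 1000 UMIs. Sign changes of genes inside the fold, such as Il2rg with TMM factors in both SP clusters, were not counted as reversed. The 920 include alternatives that could not change a ratio, namely other minimums of UMIs and the fold counted from 0. Changed totals, TMM factors and DESeq2 factors move all ratios and their median alike. Between the libraries they could therefore not change which genes were past the fold. In the Ms4a4b cluster and for both stage comparisons the number of genes past the fold stayed within 1.5 times the main number under every alternative, but in the Ms4a4b cluster the genes behind it changed: of Il7r, Socs3 and Cish, Cish alone stayed past the fold without doublets, and with thinned cells Il7r alone had enough UMIs to be called. In the Myl10 cluster it was 2 with the mean over cells and without the deepest 5% of cells, and 3 with a minimum of 1 UMI, against 1. In the proliferating clusters it was 2 with the mean over cells and without the deepest 5%, and 0 without barcodes found in both libraries, a choice made after the data were seen, against 1. In the Rag1 clusters it was 1 with thinned cells, without doublets and with a minimum of 1 UMI, against 0. In the Cd5 clusters it was 1 with the mean over cells and with the fold counted from 0, 0 with thinned cells and with a minimum of 50 UMIs, and 4 with a minimum of 1 UMI, against 2. In the Itm2a cluster it was 1 with thinned cells (Il7r), with the fold counted from 0 (Jak3) and with the clusters at resolutions 1.8 and 2, against 3. At both resolutions Il7r was not past the fold, at −0.37 from the median. At 1.8 the gene past it was Il4ra, at −0.52, which was inside the fold in the main comparison. The log2 ratio of Il7r in Cd8 over Cd4 cells was −1.34 in WT and −2.10 in KO within the Itm2a cluster, against −1.07 and −1.20 over both clusters. Within the Ms4a4b cluster it was −0.62 in WT and −0.37 in KO, and the KO interval (−0.82 to 0.08) included 0. With cells thinned before the split it was −0.75 in KO, with an interval (−1.68 to 0.23) that included 0. The causes of these shifts were not tested, except that higher minimums and thinning leave fewer genes measured.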
